A study of Homo sapiens with 6 samples.

Results

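Histones are the proteins around which DNA is wound, and the values described here are the RNA levels of their genes in MM.1S, an established human multiple myeloma cell line, with and without enzastaurin. Enzastaurin is an inhibitor of protein kinase C beta. The histone set held every probe set that the array's annotation paired with exactly 1 gene symbol of a linker or core histone. It contained 58 probe sets for 49 genes, out of 22215 probe sets that were not controls and 11963 genes named alone by a probe set. Of these, 42 probe sets for 41 genes belonged to the clustered, replication-dependent genes (6 for H1, 8 for H2A, 13 for H2B, 7 for H3 and 8 for H4). The other 16 probe sets belonged to 8 variant genes, H1-10, H2AZ1, H2AZ2, H2AX, H2AJ, H3-3A, MACROH2A1 and MACROH2A2. No probe set was listed for H3-3B alone. A further 28 histone probe sets were annotated to several genes each and were not counted as members.

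The groups compared hold 1 array each. Untreated MM.1S cells were taken at 3, 6 and 12 h, and MM.1S cells given enzastaurin were taken at the same 3 times. The labels name no dose, and the line carries no engineered allele in them. Total RNA was primed with an oligo-dT primer and labelled with biotin, and the values are linear MAS5 intensities of probe sets, that is, of groups of short probes read together. The labels do not say whether the arrays came from separate cultures, so the spread between the 6 arrays may in part be technical. The p-values below rest mostly or wholly on a variance shared across probe sets. A probe set's own spread between arrays has little or no part in them. In a bulk sample, fewer cells with a transcript and less of it per cell cannot be told apart.

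Clustered histone genes are switched on as cells copy their DNA, and most of their messages end in a stem-loop in place of a poly(A) tail. Their stem-loop is bound by SLBP, and their transcription is organised by NPAT. Most variant histones are made through the cell cycle from ordinary polyadenylated messages, and dedicated chaperones, such as HIRA for H3.3, place variants into chromatin. An oligo-dT primer therefore takes up such variant messages as it does other messages. It reads clustered genes mainly through those copies that carry a poly(A) tail.

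Start regions are printed for members on which the results turn, since H2B and H2A genes carry an octamer there that the variants' windows lack. RefSeq start windows (GRCh38.p14, 250 bases before to 50 after the start) were found for 46 of the 49 genes. The octamer ATTTGCAT, the element bound by OCT1 in H2B promoters, was searched on both strands together with TATAAA and CCAAT, and matches could share their end letters. The octamer was in the windows of 8 of 11 H2B genes and 6 of 8 H2A genes. It was found in 0 H1, H3, H4 and variant genes, and in 598 of 27305 genes (2.19%) in the whole table. TATAAA was in 9 of 11 H2B genes and 3 of 8 variants, against 14% of all genes, and CCAAT was in 11 of 11 H2B genes and 6 of 8 variants, against 39.7%. A match is a string of letters and not a shown binding site. H2BC12 and H2BC5 have 2 listed starts, of which the first is shown, and H3-3A has 4, of which the last is shown. The 160 bases before the start follow, 5′ to 3′ on the gene's strand, with octamer, TATAAA and CCAAT matches on either strand in capitals. They lie at chr6:27146859-27147018 (minus strand) for H2BC12, chr1:149886683-149886842 (minus) for H2BC21, chr6:26183601-26183760 (plus) for H2BC6 and chr6:26157961-26158120 (plus) for H2BC5. The variants shown lie at chr11:119095466-119095625 (minus) for H2AX and chr1:226062556-226062715 (plus) for H3-3A.
H2BC12: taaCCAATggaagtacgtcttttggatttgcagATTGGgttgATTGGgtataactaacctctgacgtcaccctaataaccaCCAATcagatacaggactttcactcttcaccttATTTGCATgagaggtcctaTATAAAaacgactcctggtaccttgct
H2BC21: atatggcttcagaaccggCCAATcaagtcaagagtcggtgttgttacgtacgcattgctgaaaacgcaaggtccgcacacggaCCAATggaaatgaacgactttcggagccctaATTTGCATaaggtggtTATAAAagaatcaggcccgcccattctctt
H2BC6: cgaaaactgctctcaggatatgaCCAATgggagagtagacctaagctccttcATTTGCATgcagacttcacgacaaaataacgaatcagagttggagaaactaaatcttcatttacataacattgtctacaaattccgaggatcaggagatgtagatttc
H2BC5: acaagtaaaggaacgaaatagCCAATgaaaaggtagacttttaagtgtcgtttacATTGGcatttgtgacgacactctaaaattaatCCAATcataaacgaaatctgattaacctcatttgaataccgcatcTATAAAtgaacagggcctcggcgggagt
H2AX: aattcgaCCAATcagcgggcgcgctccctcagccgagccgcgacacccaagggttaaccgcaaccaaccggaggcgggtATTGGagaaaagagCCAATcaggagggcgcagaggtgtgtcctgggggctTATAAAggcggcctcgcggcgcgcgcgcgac
H3-3A: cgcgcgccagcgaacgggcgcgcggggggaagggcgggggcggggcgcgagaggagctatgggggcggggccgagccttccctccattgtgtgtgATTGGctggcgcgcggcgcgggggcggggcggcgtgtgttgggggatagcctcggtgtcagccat
In H2BC12 and H2BC21 the octamer begins 46 bases before the start, shortly before a TATAAA match, whereas in H2BC6 it begins 108 bases before the start. H2BC5 has a TATAAA match 28 bases before its start and no octamer in the stretch shown. H2AX, a variant whose gene is also used in S phase, has TATAAA and CCAAT matches, and H3-3A has a single CCAAT match on the opposite strand.

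The arrays differed in ways that the groups do not explain. Median intensity lay between 62.2 and 67.6, but the mean log2 intensity of the ribosomal RNA controls was 3.39, 11.98 and 9.29 in untreated cells at 3, 6 and 12 h and 9.99, 3.79 and 3.02 with enzastaurin. Its direction between treated and untreated cells thus turned after 3 h, as several ratios below do. The ACTB 3′ to 5′ log2 difference, a sign of RNA integrity, was 1.89, 1.16 and 1.60 without and 2.0, 0.57 and 0.86 with enzastaurin. Of the 8 plasma cell markers, 7 passed the intensity filter, and CD27 did not. Their summed level was 13372, 17573 and 17771 in untreated and 13534, 13265 and 10374 in treated cells, so it was lower with enzastaurin at 6 and 12 h. At 12 h the log2 ratio was -3.08 for TNFRSF17, -1.42 for SDC1 and -1.33 for IRF4. It was -0.75 for CD38, -0.64 for PRDM1 and -0.50 for SLAMF7. XBP1, the brightest marker, went the other way, with log2 ratios of 0.46 at 6 h and 0.26 at 12 h. None of 6 T and NK cell markers (4.41 to 53.1) or 6 monocyte markers (0 to 61.4) passed the filter. The summed levels of T and NK cell markers were 162 to 192 in untreated and 186 to 206 in treated cells, those of monocyte markers 105 to 175 and 125 to 166.

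Few histone probe sets stood apart from the rest of the array. Of the 58, 23 (12 clustered, 11 variant) passed the filter, which kept the brighter 50 percent of all probe sets, 11108 in number, with a geometric mean of at least 63.3. Over all 3 times 0 of the 23 passed limma's test (adjusted p under 0.05), against a background of 0.009% of tested probe sets. An unadjusted p under 0.05 was reached there by 0 of the 23 and by 621 of all 11108. At 6 and 12 h alone 1 of the 23 passed, H3-3A, where 3.17% of all tested probe sets did (1.39% higher, 1.78% lower). A fit of the ratio against log2 hours called 0 of the 23 and 1.63% of all. Under an unadjusted p of 0.05 it had 2 of the 23, H3-3A and H3C6, and 1253 of all 11108. Log2 ratios of treated to untreated cells that were at least 1 in size, or 2-fold, were reached by 0 of 23 at 3 h, 1 at 6 h and 2 at 12 h. The same was true of 5.19%, 9.48% and 14.3% of all tested probe sets, so these counts were near the background. With equal medians of all arrays the 12 h count was 5 of 23 (21.7%) against 13.7% of all. At 1 or more times 2 of 23 (8.70%) were 2-fold apart, against 23.2% of all. The ratio kept 1 sign at all 3 times in 7 of 23, against 23.5% of all.

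**Figure D1:**
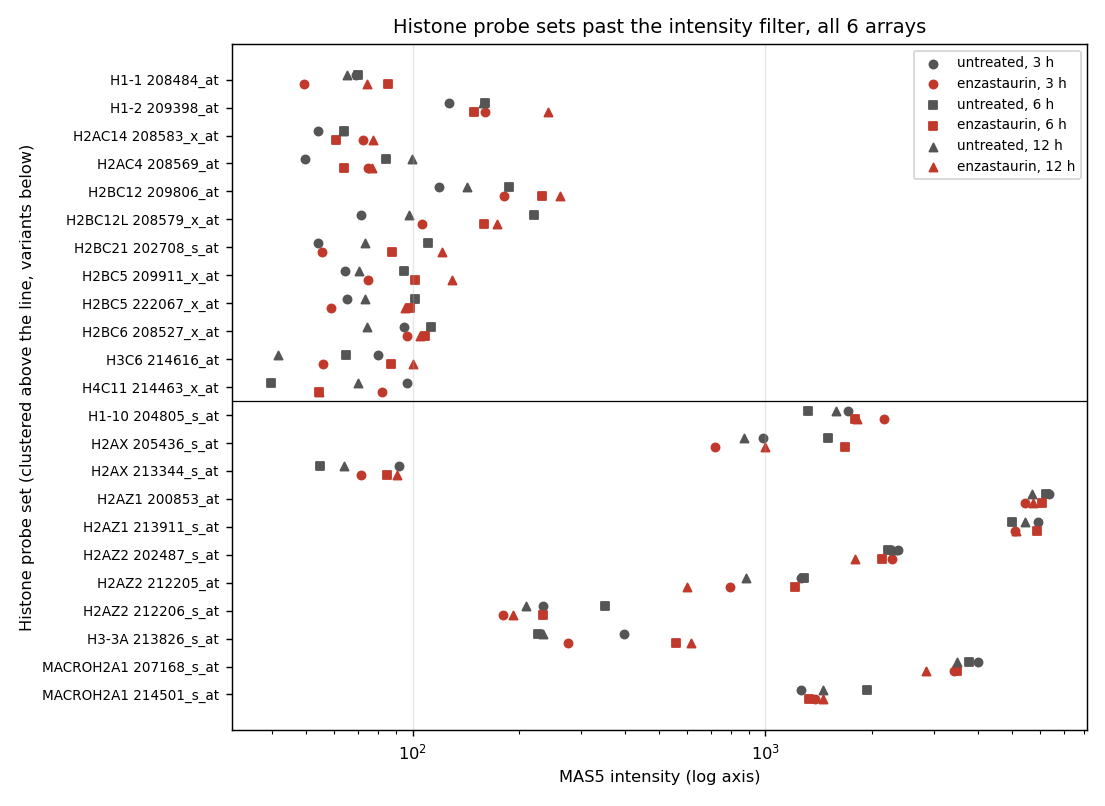
Deposited MAS5 intensity (log axis) of the 23 histone probe sets that passed the filter, 1 point for each array, untreated and enzastaurin-treated cells at 3, 6 and 12 h. H2AZ1, MACROH2A1, H2AZ2 and H1-10 hold the brightest probe sets, and the clustered probe sets lie between 39.6 and 261; heights of different probe sets cannot be compared as RNA amounts.

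H3-3A encodes the replication-independent histone H3.3, which is laid down at active genes and, through ATRX and DAXX, at telomeres and repeats. Its only single-gene probe set read 397, 227 and 235 in untreated cells at 3, 6 and 12 h and 276, 559 and 617 with enzastaurin. Treated cells were lower at 3 h and higher at both later times, and over the 6 arrays the 2 groups overlapped. The log2 ratios were -0.52, 1.30 and 1.39. At 6 and 12 h the mean log2 ratio was 1.35 (SE 0.32, 2 arrays a group, a 2.54-fold difference; limma adjusted p = 0.0323), which was the single histone call. Over all 3 times the log2 change was 0.72 (SE 0.39, adjusted p = 0.980), since the 3 h pair went the other way. The call at 6 and 12 h was lost without an intensity trend in limma's prior variance (adjusted p = 0.0587), and its adjusted p lay between 0.000876 and 0.0339 under the other settings.

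Other probe sets annotated to H3.3 genes gave different values. Another 8 probe sets are annotated to H3-3A together with H3-3B and a microRNA gene, with intensities from 105 to 11059, and all passed the filter. At 6 h 7 of the 8 had a ratio above 0 (log2 ratios -0.24 to 0.66), and at 12 h 0 of the 8 did (-1.14 to -0.00). Their log2 changes at 6 and 12 h ran from -0.69 to 0.25, with adjusted p between 0.352 and 0.994. H3-3A's ratio also moved opposite to the ribosomal RNA controls, which were lower with enzastaurin at 6 and 12 h and higher at 3 h. With that control as a covariate over all 3 times, its log2 change was 0.38 (SE 0.31, adjusted p = 0.999). The 6 and 12 h arrays alone left no degree of freedom for such a fit.

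**Figure D2:**
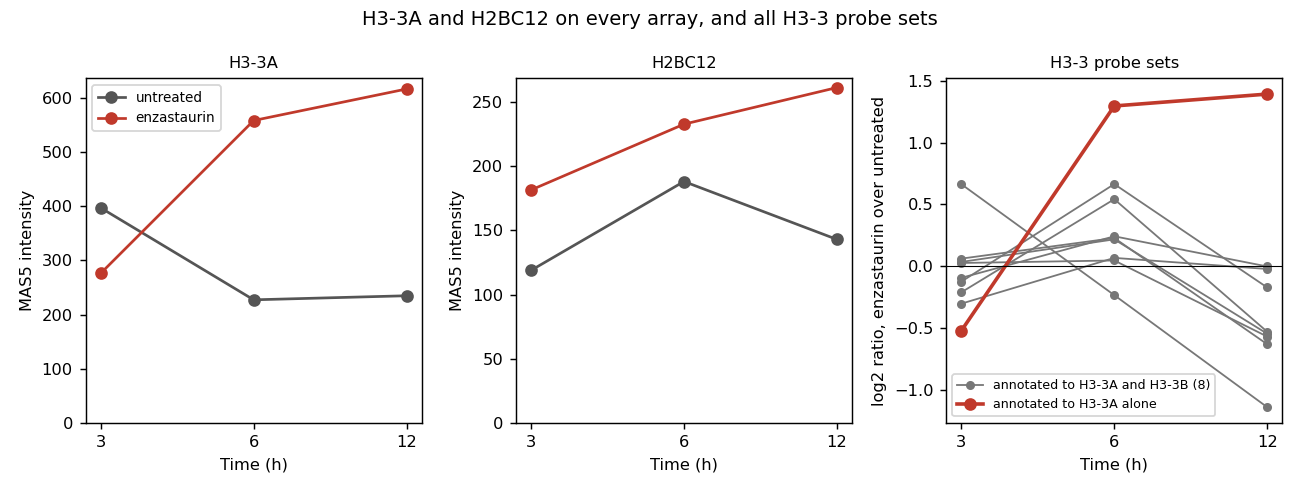
Left and middle, MAS5 intensity of H3-3A and of H2BC12, a clustered gene described below, against time in untreated and enzastaurin-treated cells, 1 array a point. Right, log2 ratio of treated to untreated cells for the H3-3A probe set and the 8 probe sets annotated to H3-3A and H3-3B; the H3-3A line goes from -0.52 to 1.30 and 1.39, while all 8 others lie below 0 at 12 h.

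Among the other tested variant probe sets no ratio reached 2-fold at any time. H1-10 encodes H1X, a linker histone, and its intensity was 1709, 1320 and 1580 without and 2170, 1795 and 1816 with enzastaurin. Each treated array was above each untreated one, which made it the 1 histone of 23 with groups that did not overlap and treated cells higher. In the background, 3.53% of tested probe sets did so in that direction and 6.93% in the other, in which 0 of the 23 did. The mean log2 change of H1-10 was 0.33 (SE 0.22, adjusted p = 0.987), a 1.26-fold difference that did not pass the test.

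H2AZ1 and H2AZ2 encode the 2 forms of H2A.Z, which sits at the nucleosomes flanking transcription starts. The brighter H2AZ1 probe set read 6344, 6232 and 5698 in untreated and 5444, 6078 and 5728 in treated cells, and the groups overlapped. Its mean log2 change was -0.08 (SE 0.14, adjusted p = 0.987). H2AZ2 leaned lower: its brightest probe set read 2375, 2227 and 2302 without and 2287, 2135 and 1795 with enzastaurin. A second one read 1261, 1286 and 881 in untreated and 793, 1212 and 598 in treated cells. The third and dimmest read 234, 351 and 210 against 180, 234 and 192. Each of the 3 probe sets was lower in treated cells at all 3 times, by 0.16, 0.44 and 0.36 on the log2 scale on average, yet in each the 2 groups overlapped. The log2 change of the second was -0.44 (SE 0.26, adjusted p = 0.987), so none of these differences passed the test. These probe sets read 1 gene's RNA and are not replicates.

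MACROH2A1 encodes macroH2A1, a large H2A variant of the inactive X chromosome and other silent chromatin. Its brightest probe set read 4005, 3770 and 3488 in untreated and 3415, 3490 and 2853 in treated cells, lower at each time. The mean log2 change was -0.21 (SE 0.17, adjusted p = 0.987), with overlapping groups. A second probe set read 1258, 1935 and 1454 against 1378, 1333 and 1453, and its mean log2 change of -0.14 became 0.065 without the 6 h pair. The third lay below the filter and leaned the other way, with log2 ratios of 0.69, 0.32 and 0.36. The probe sets of this gene therefore disagreed in direction.

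H2AX, whose phosphorylated form marks DNA breaks, read 981, 1504 and 868 in untreated and 717, 1676 and 999 in treated cells at its brightest probe set. Its log2 ratios were -0.45, 0.16 and 0.20, and the mean log2 change was -0.03. A weaker probe set had the same order of signs (-0.36, 0.63 and 0.49), and the 2 dimmest H2AX probe sets lay below the filter. H2AJ and MACROH2A2 were below the filter too. H2AJ read 16, 7.76 and 8.63 without and 12.2, 10.8 and 24.0 with enzastaurin. MACROH2A2 read 9.50, 6.91 and 14.8 against 0.0214, 28.3 and 66.4, lower at 3 h and higher after it. Over the 11 variant probe sets tested, the median log2 ratio was -0.23 at 3 h, -0.04 at 6 h and -0.00 at 12 h, beside -0.05, 0.07 and -0.16 for all tested probe sets.

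The clustered genes lay farthest from the array's median at 12 h. Of the 12 clustered probe sets tested, 10 had a log2 ratio above 0 at 12 h, with a median of 0.56, whereas 40.4% of all tested probe sets did. At 3 h 8 of 12 were above 0 (45.5% of all), and at 6 h 5 of 12 (55.0% of all). The variants showed 2, 5 and 5 of 11 above 0 at the 3 times. There is 1 array on each side at each time, so these counts carry no test. Of the 12, H3C6 and H2AC14 passed the filter only through their treated arrays and H4C11 only through its untreated ones. The 12 h ratio also varied with intensity over the whole array. Its median was -0.22 in the brightest 25 percent of probe sets and 0.13 below the filter, where 56.6% were above 0. The clustered probe sets tested were dim (39.6 to 261), and the part of intensity in their ratios was not tested. None of the 12 passed limma's test in any of the 3 fits. At 6 and 12 h 1 of them (H3C6) had an unadjusted p under 0.05, as did 16.2% of all tested probe sets.

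The H2B genes made up 6 of those 12 probe sets, and all 6 were higher with enzastaurin at 12 h. Their log2 ratios ran from 0.37 to 0.88. Their median was 0.78, against -0.16 for all tested probe sets and 0.13 for all those below the filter. At 3 h their median log2 ratio was 0.13 and at 6 h -0.05. Of the 6, 4 are of the kind named x_at, whose probes also match other sequences, so they can read the same H2B messages and are not independent. The remaining 2, for H2BC12 and H2BC21, had 12 h log2 ratios of 0.87 and 0.73. The H2BC21 one is named s_at, and near-identical histone genes can share probes, so it may not be independent either.

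H2BC12 had the second largest mean ratio of the 23 tested histone probe sets. It read 119, 188 and 143 without and 182, 233 and 261 with enzastaurin. Treated cells were higher at each time, but the groups overlapped, because the treated 3 h array lay below the untreated 6 h array. The log2 ratios were 0.61, 0.31 and 0.87, and their mean was 0.60 (SE 0.30, a 1.51-fold difference; adjusted p = 0.948).

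H2BC21 read 54.1, 111 and 73.1 in untreated and 55.3, 87.6 and 121 in treated cells. H2BC12L read 71.3, 221 and 97.5 against 106, 160 and 173, with log2 ratios of 0.58, -0.47 and 0.83 and a mean of 0.31. H2BC5, at the first of its probe sets, read 64.1, 94.6 and 70.6 against 74.6, 102 and 129, with a mean log2 change of 0.40 (SE 0.32, adjusted p = 0.987). In all 3 the untreated array at 6 h was the highest of its group and the treated array at 12 h the highest of the other. At its other probe set H2BC5 differed less, with a 12 h log2 ratio of 0.37. H2BC6 read 94.3, 112 and 74.4 in untreated and 96.4, 108 and 105 in treated cells, with a 12 h log2 ratio of 0.50.

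The H2B probe sets shared the time of their highest value in untreated cells, and less so in treated ones. The 4 of the x_at kind can read the same messages and are not independent. In untreated cells 6 of 6 H2B probe sets were highest at 6 h. The same was true of 28.4% of all tested probe sets, 3 of the 6 other clustered ones and 4 of 11 variants. With enzastaurin 4 of 6 H2B probe sets were highest at 12 h, as were 28.3% of all, 4 of the 6 other clustered ones and 3 of 11 variants. The untreated 6 h array also had the highest ribosomal RNA control, and the part of that difference in the H2B values was not tested at single times.

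**Figure D3:**
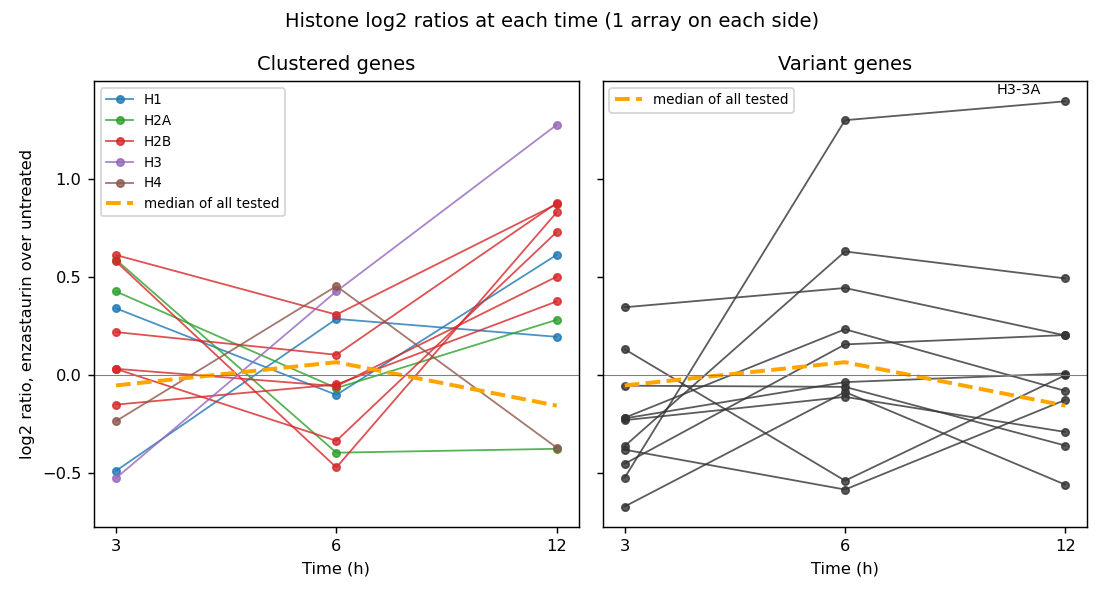
Log2 ratio of enzastaurin-treated to untreated cells against time (3, 6 and 12 h), 1 line for each of the 23 tested histone probe sets, clustered genes on the left coloured by class and variants on the right, with the median of all tested probe sets as reference. The 6 H2B points at 12 h lie between 0.37 and 0.88, above the median of all at -0.16, and at 6 h they lie on both sides of 0.

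H3C6, a clustered H3 gene, read 80.0, 64.8 and 41.4 without and 55.6, 87.1 and 100.2 with enzastaurin. The untreated values were lower at each later time and the treated ones higher, so the log2 ratio went from -0.53 at 3 h through 0.43 to 1.27 at 12 h, a 2.42-fold difference. At 6 and 12 h its log2 change was 0.85 (SE 0.40, adjusted p = 0.305), and without the 12 h pair the mean over the other times was -0.049. It is the 1 H3 gene of the cluster above the filter. It passed only through its treated arrays, since the untreated ones alone fell short of the geometric mean of 63.3. Its place among the tested probe sets is thus not independent of its higher treated values.

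Linker histone H1-2 read 127, 160 and 159 in untreated and 160, 149 and 242 in treated cells, with a 12 h log2 ratio of 0.61. H1-1 differed by 0.19 at 12 h and by -0.49 at 3 h. The 2 H2A genes tested, H2AC14 and H2AC4, were both higher at 3 h (0.43 and 0.59) and both lower at 6 h (-0.07 and -0.40), and their 12 h log2 ratios were 0.28 and -0.38. H4C11 had log2 ratios of -0.23, 0.45 and -0.37.

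A probe set annotated to 14 H4 genes read 6333, 2902 and 5171 in untreated and 4965, 4577 and 4202 in treated cells. Its log2 ratios were -0.35, 0.66 and -0.30, lower, higher and lower again. The single-symbol H4C11 probe set showed the same 3 signs. Of the 5 H2B probe sets with several genes 3 had a 12 h ratio above 0 (-0.20 to 0.69), and 1 of them passed the filter. The same was true of 3 of 5 for H2A, 2 of 4 for H3 and 1 of 6 for H4. Of the H2A ones 2 passed the filter. The brighter (383 to 943) had log2 ratios of -0.18, 0.93 and -0.39, and the other 0.84, 0.48 and 0.39. The 2 brightest clustered probe sets with several genes, for H4 and H2A, were thus lower at 12 h.

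Below the filter lay 35 histone probe sets, 30 clustered and 5 variant, with intensities from 0 to 153, and they were not tested. At 1 or more times 22 of the 35 were 2-fold apart, which was near the 56.5% of all probe sets below the filter. Their median log2 ratios were -0.05, 0.25 and 0.30 at 3, 6 and 12 h, beside -0.04, 0.15 and 0.13 for all probe sets below the filter. H1-4, a major linker histone, read 49.6, 67.6 and 18.5 in untreated and 12.4, 99.1 and 153 in treated cells, a log2 ratio that ran from -2.01 to 3.06. H2BC13 read 4.91, 23.0 and 16.1 against 22.1, 34.8 and 56.4, and H3C3 lay lowest, with log2 ratios of -2.06, -0.21 and -2.51. H1-6 and H2AC15 were higher in every treated array than in any untreated one, and H2AC16, H2AC25 and H4C4 were lower. These 2 and 3 of 35 stand beside 6.72% and 3.9% of all probe sets below the filter. H4C9 stayed between 57.1 and 66.0 on the 6 arrays, and H4C13 was listed at 0 on the treated 3 h array.

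When the same fit was made without the filter, 3 of 58 histone probe sets passed at 6 and 12 h, against 3.27% of all 22215. H3-3A had an adjusted p of 0.00850, H1-4 a log2 change of 1.80 (SE 0.45, adjusted p = 0.0153) and MACROH2A2 one of 2.10 (SE 0.57, adjusted p = 0.0298). H1-4 was also the 1 histone to pass the fit against log2 hours, which called 0.176% of all, with a slope of 2.53 for each doubling of time (SE 0.44, adjusted p = 0.0264). H3-3A, H1-4 and MACROH2A2 were picked by this call, so their higher ratios at 6 and 12 h follow from the choice. At 3 h the treated array was lower in each, but H1-4 and MACROH2A2 read only 12.4 and 0.0214 there.

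Genes that make, process and carry histones mostly had ratios below 0 at 12 h, as did 59.6% of all tested probe sets, whose median was -0.16. With equal medians of all arrays that share was 48% and the counts below 0 for the 3 lists that follow were 16 of 21, 22 of 31 and 29 of 41. The lists hold each gene's brightest probe set. In the deposited scaling the 12 h median was -0.18 with 1 probe set per gene and -0.22 in the brightest 25 percent. The part of intensity in the list counts was not tested. In a list of genes for histone mRNA transcription and processing, 23 of 30 were on the array and 21 passed the filter. Of these 18 had a ratio below 0 at 12 h, with medians of -0.22, 0.12 and -0.41 at the 3 times. Limma called 0 of the 21 in each of the 3 fits. An unadjusted p under 0.05 was reached by 0 in each fit, against 16.2% of all tested probe sets at 6 and 12 h. NPAT, the activator of histone gene transcription, read 265, 189 and 218 in untreated and 192, 161 and 138 in treated cells, with log2 ratios of -0.47, -0.23 and -0.66. SLBP, which binds the stem-loop, had log2 ratios of -0.00, 0.10 and -0.91, and UPF1, a helicase used in histone mRNA decay, -0.22, 0.30 and -1.33.

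Among histone chaperones, 31 of 32 passed the filter, with median log2 ratios of -0.21, -0.16 and -0.51, and 25 of the 31 were below 0 at 12 h. HIRA, which deposits H3.3, was the 1 of 31 called, lower at 6 and 12 h, a share near the 3.17% of all tested probe sets. An unadjusted p under 0.05 was reached by 9 of the 31, against 16.2% of all. HIRA read 356, 119 and 223 without and 240, 40.4 and 32.2 with enzastaurin, and over the 6 arrays the groups overlapped. The log2 change at 6 and 12 h was -2.18 (SE 0.40, limma adjusted p = 0.00687). Over all 3 times and in the fit against log2 hours 0 of the 31 were called. The HIRA call was not checked under the other settings. HIRA's partner UBN1 had log2 ratios of -0.44, -0.65 and -1.16. ASF1A, which hands H3 and H4 to HIRA, had -0.89, -0.19 and -1.35, and NPM3 had 0.19, -0.80 and -1.57, none of them called.

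Of the replication fork genes of S phase, all 41 on the array passed the filter. Their median log2 ratios were -0.17, 0.12 and -0.45, and 34 of the 41 were below 0 at 12 h. POLD1, the catalytic subunit of DNA polymerase delta, was the 1 of 41 called at 6 and 12 h, lower, against 3.17% of all tested probe sets. An unadjusted p under 0.05 was reached by 5 of the 41, against 16.2% of all, so neither count was above the background. POLD1 read 99.6, 268 and 245 against 211, 98.9 and 99.5, with a log2 change at 6 and 12 h of -1.37 (SE 0.33, adjusted p = 0.0354). Its log2 ratio at 3 h was 1.09, the other way. Over all 3 times and in the fit against log2 hours 0 of the 41 were called. The POLD1 call was not checked under the other settings. MCM7, of the replicative helicase, had log2 ratios of 0.23, -0.90 and -1.11, LIG1, the ligase of the lagging strand, 0.24, -1.18 and -1.07, and PRIM2, of the primase, -0.30, -0.12 and -1.59. PCNA, the sliding clamp, had a 12 h log2 ratio of -0.46.

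**Figure D4:**
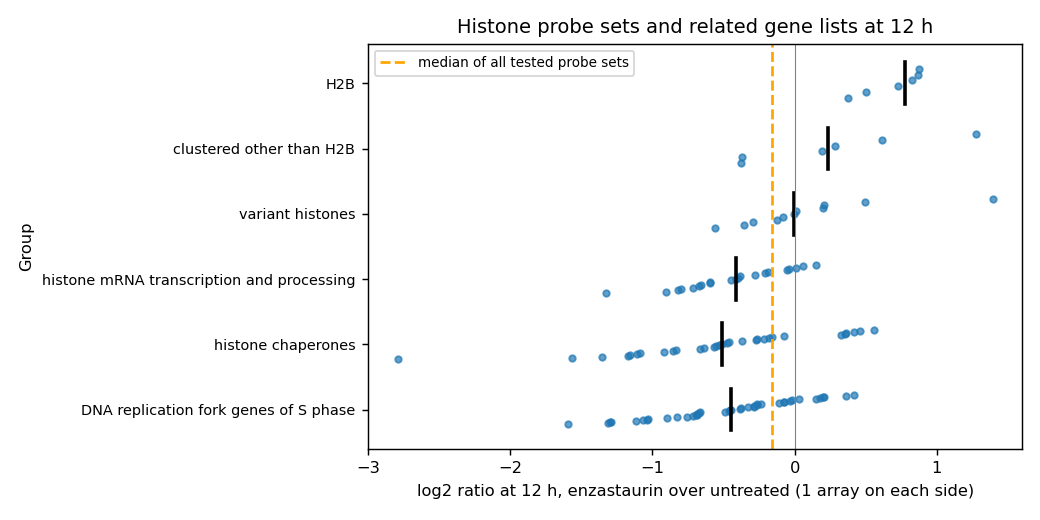
Log2 ratio of enzastaurin-treated to untreated cells at 12 h for tested probe sets of the H2B genes, other clustered genes and variants, and for genes of the 3 lists, 1 point each with the median as a bar. All 6 H2B points are above 0, while 18 of 21 histone mRNA genes, 25 of 31 chaperones and 34 of 41 replication genes are below it, against 59.6% of all tested probe sets. The H2B probe sets are dim and the lists hold each gene's brightest probe set, and the part of intensity was not tested.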

How the data were processed

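RNA of 6 MM.1S samples was read on Affymetrix arrays. The authors deposited 1 linear intensity for each probe set and array, and the tool was MAS5, per the submitters' processing notes. That scaling was kept, and its target is not given in the sources used here. Of 22277 probe sets 62 were controls, and 19064 had 1 symbol in the platform annotation (1043 several, 2108 not listed). Probe sets were kept separate. Near-identical histone genes can share probes.

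Deposited intensities were floored at 1 and taken to log2. The brighter 50 percent of probe sets by mean log2 value were fitted with limma 3.58.1 under R 4.3.3 (eBayes, intensity trend), with time as a block since the design matches arrays by time. Residual degrees of freedom were 2 over all times and 1 in the other fits, so p-values lean on a prior variance shared by all probe sets. The prior had 9.41 degrees of freedom over all times and 14.1 at 6 and 12 h. In the fit on log2 hours it had infinitely many, so a probe set's own spread had no part there. The p-values were adjusted by Benjamini-Hochberg over 11108 probe sets. The fits were also run on data simulated from limma's own prior variance, with no time effect and no shift between arrays. That run checked the code and cannot show whether the calls hold in these data. A fold change is on the log2 scale unless stated.

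Members, lists, fits and the naming rule were chosen with earlier results of these data known. The rule gives all arrays for called members, the 6 highest and 6 lowest mean ratios past the filter, and the brightest probe set of each variant. Other genes named, H1-4, H2BC13, H2BC21, H2BC6, H1-2, H1-6, H2AC15, H2AC16, H2AC25, H3C3, H4C4, H4C9, SLBP and PCNA among them, were chosen after their values were seen. Lists hold each gene's brightest probe set. Alternatives were other scalings, floors and filters, 1 probe set per gene, no trend, no time block, a ribosomal RNA covariate and each time left out.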

Additional observations from a re-analysis of the deposited data

How the results depend on the processing

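With 1 array for each treatment and time, the number of arrays limits every comparison, and dim clustered probe sets limit it further. Over all 3 times 1 probe set was called. With equal medians there were 4, without the filter 0, with the upper 25 percent 3, with 1 probe set per gene 4, without the trend 0, without the time block 3 and with the ribosomal RNA covariate 73. Leaving out 1 time gave 0 to 352, the latter without the 3 h pair, which is the 6 and 12 h fit itself. Histone calls over all 3 times were 0, and 0 to 1 with a time left out. The 1 was H3-3A without the 3 h pair (log2 change 1.35), the same call as at 6 and 12 h and not a second result. At 6 and 12 h 352 were called, against 885 after quantile normalization, 867 with equal medians, 727 without the filter and 215 without the trend. The 1 histone call became 3 without the filter and 0 without the trend. The fit on log2 hours called 181, against 73 after quantile normalization, 15 with equal medians, 39 without the filter, 106 in the upper 25 percent, 98 with 1 probe set per gene and 32 without the trend. Its histone calls went from 0 to 1 without the filter. Histone probe sets 2-fold apart at 3, 6 and 12 h were 0, 1 and 2, and without the filter 10, 6 and 16; at 12 h equal medians gave 5 and the upper 25 percent 1. The mean log2 ratio of MACROH2A1 at its second probe set was -0.14 and turned to 0.065 without the 6 h pair (-0.27 to 0.065 with a time left out). That of H3C6 was 0.39 and turned to -0.049 without the 12 h pair (-0.049 to 0.85). The median of all tested probe sets at 12 h was -0.16 in the deposited scaling, 0.03 with equal medians and -0.01 after quantile normalization. Of the probe sets 2-fold apart at 12 h, 69.4% were lower in the deposited scaling, 46.9% with equal medians and 55.7% after quantile normalization. The H2B median at 12 h was 0.78 as reported, 0.84 after quantile normalization, 0.97 with equal medians and 0.76 without the filter, where 11 of 13 were above 0. After quantile normalization 16 of 21, 23 of 31 and 29 of 41 genes of the 3 lists were below 0 at 12 h, a check added after seeing the data, as was that with equal medians. The upper 25 percent filter left no H2B probe set. Without probe sets of the x_at kind, a choice made after seeing the data, it was 0.80 over 2 probe sets. The variant median at 12 h was -0.00, and 0.19 with equal medians. The causes of these differences were not tested.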
